A study of Mus musculus with 18 samples.

Results

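The genes described here code for mitochondrial complex I and for the factors that build it. They were taken as every gene of the deposited table whose symbol begins with Nduf, a rule that uses no measured value, and 39 of the 10509 listed genes met it. By their known roles they comprised 6 core subunits, 9 accessory subunits of the peripheral arm, 14 accessory subunits of the membrane arm, the acyl carrier subunit Ndufab1, 8 assembly factors (Ndufaf1 to Ndufaf8) and Ndufa4. The first 4 of these classes, 30 genes, are called subunits below. The measurements come from pancreatic islets of mice fed a high-fat diet for 12 weeks. Of these mice, 10 lacked NRK1 in beta cells (KO, labelled NRK1_BKO) and 8 were WT (labelled NRK1_WT). Titles of both groups begin with Ins1Cre, the driver of the knockout. The labels do not say whether the WT mice carried the Cre allele, and give no age, sex or strain. The driver acts in beta cells, while an islet also holds alpha, delta, endothelial and other cells in which NRK1 is kept. In such whole-islet RNA, fewer cells of a type and less RNA per cell cannot be told apart.

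Complex I, NADH:ubiquinone oxidoreductase, is the entry point of the respiratory chain. Its peripheral arm, which reaches into the matrix, takes electrons from NADH and passes them along iron-sulfur clusters to ubiquinone, and its membrane arm pumps protons. Core subunits carry the catalysis, accessory subunits surround and stabilise them, and assembly factors help to put the modules together without staying in the finished enzyme. In beta cells, respiration fed by glucose makes the ATP that closes potassium channels and triggers insulin release. NRK1 (gene Nmrk1) phosphorylates nicotinamide riboside on the way to NAD, whose reduced form NADH is the substrate of complex I, and the comparison asks how islet transcripts differ without it. The mitochondrially encoded subunits and the nuclear core subunit Ndufs3 were not analysed here.

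Reads were taken from the 3' ends of transcripts, about 1 per transcript, so levels of different genes were compared without scaling by length. Levels are the deposited log2 values, log2 of CPM (reads scaled by a size set for each library) plus 0.562. The lowest value is -0.83, for a gene without a read. That size is not simply the total of reads over the listed genes. KO 3 and KO 6 held similar totals, 3292303 and 3295299. A read was worth 0.390 CPM in KO 3 and 0.265 CPM in KO 6. The libraries held 2831137 to 4303680 reads over the listed genes. Of these, 3 stood apart by their many genes at the lowest value, KO 2 with 320, KO 3 with 227 and WT 7 with 346, against 33 to 150 in the other 15. The counts of genes higher and lower in KO are therefore given with and without these 3 libraries, as are the differences of most genes named. Nmrk1 itself had 4 to 21 reads in KO libraries and 3 to 36 in WT libraries. The labels do not say which exons were removed, and reads from the 3' end therefore cannot check the genotype. Of 9 marker lists for islet and other cell types, none differed between KO and WT after adjustment over the lists (exact permutation test of the mean log2 over all 43758 regroupings, two-sided). The smallest p was 0.0188 for the adipocyte list (Fabp4, Car3 and Adipoq, adjusted p = 0.169), which averaged 3.45 in KO and 2.74 in WT.

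Complex I transcripts were well represented in these islets, and subunits had higher levels than assembly factors. Of the 39 genes, 31 lay above the median listed gene by mean level, 28 of 30 subunits and 3 of 8 assembly factors. The median mean level was 6.14 for subunits and 3.41 for assembly factors on the log2 scale, against 4.10 for all listed genes. Together the 39 genes took 0.248% ± 0.0632 of the reads in KO (SD, n = 10) and 0.282% ± 0.0419 in WT (SD, n = 8). Without KO 2, KO 3 and WT 7 the shares were 0.272% ± 0.0401 in KO (SD, n = 8) and 0.293% ± 0.0322 in WT (SD, n = 7). With the reads of Ins1 and Ins2 also left out they were 0.518% in KO and 0.527% in WT.

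The most abundant was Ndufa2, an accessory subunit of the peripheral arm with a thioredoxin-like fold. Its log2 level had a lowest value of 7.34, a median of 8.12 and a highest value of 8.36 in KO, and 8.10, 8.28 and 8.70 in WT. Ndufv3, an accessory subunit of the NADH-oxidising module, was next, with 5.78, 7.38 and 7.75 in KO and 6.99, 7.33 and 7.51 in WT. In both genes KO 2 was the lowest library of all, the next lowest KO library lay at 7.90 for Ndufa2 and 6.88 for Ndufv3, and the groups overlapped. At the other end were Ndufaf6, an assembly factor, with 0.83, 1.52 and 3.02 in KO and -0.83, 2.31 and 2.67 in WT, and Ndufs5, an accessory subunit on the intermembrane-space side of the membrane arm. Ndufs5 had -0.83, 1.80 and 3.91 in KO and -0.83, 1.33 and 3.19 in WT, which is 0 to 37 reads per library. Its reads are uncertain, because 51.9% of the 65-base words in the last 300 bases of its transcripts also occur in a pseudogene. These 2 genes were the only complex I genes with no read in at least 1 library, and the groups overlapped in both.

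**Figure D1:**
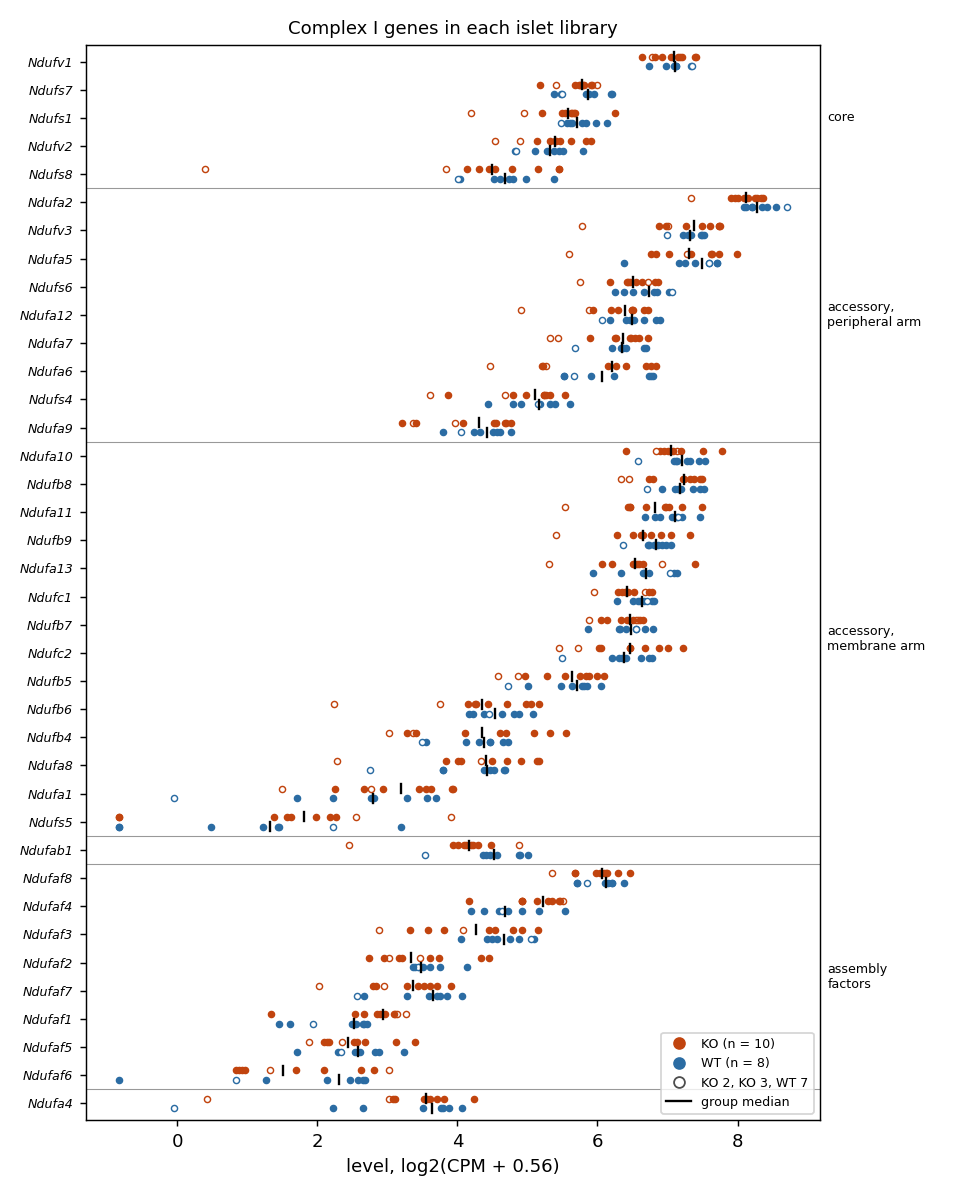
Level of 38 of the 39 complex I genes in every library, as log2(CPM + 0.56) on the x axis, with KO above WT in each row and the group median as a bar. Open circles are the 3 libraries with 200 or more listed genes without a read. KO 2 is the lowest library for 22 of the 38 genes drawn. The KO and WT ranges overlap for all 38, a count that was not taken over all genes.

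Among the core subunits, levels spanned 4.42 to 7.08. Ndufv1, which binds NADH and the flavin, was the highest, with a lowest value of 6.63, a median of 7.10 and a highest value of 7.41 in KO, and 6.74, 7.11 and 7.34 in WT. Its partner in the NADH-oxidising module, Ndufv2, had 4.54, 5.40 and 5.91 in KO and 4.82, 5.33 and 5.80 in WT. Ndufs1, the large iron-sulfur subunit of the same module, had 4.19, 5.58 and 6.25 in KO and 5.48, 5.70 and 6.14 in WT. The KO range of each of these 3 genes extended below the WT range, farthest for Ndufs1, and the medians lay close together. Ndufs7 and Ndufs8 carry iron-sulfur clusters on the way to ubiquinone. Ndufs7 had 5.19, 5.77 and 5.99 in KO and 5.38, 5.86 and 6.21 in WT. Ndufs8 was the most uneven, with 0.40, 4.50 and 5.45 in KO and 4.01, 4.67 and 5.38 in WT. The lowest value is KO 2, where Ndufs8 had 2 reads, against a median of 85 over the 18 libraries.

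The assembly factors were low and differed among themselves. Ndufaf8, a small factor that works with Ndufaf5, was the one factor with a mean log2 level above 5, at 6.01. Ndufaf4 and Ndufaf3, which bind each other on an early intermediate, averaged 4.96 and 4.38. Ndufaf2 averaged 3.52, Ndufaf7, an arginine methyltransferase, 3.31, Ndufaf1 2.55, Ndufaf5 2.52 and Ndufaf6 1.72. Within a library, the mean of the subunits exceeded the mean of the assembly factors by 2.04 ± 0.30 in KO (SD, n = 10) and by 2.15 ± 0.13 in WT (SD, n = 8), in all 18 libraries. The gap was smallest in KO 2, at 1.24, and lay between 1.96 and 2.32 in the other 17. Of the assembly factors named without the Nduf prefix, 11 were listed, with a median level of 3.74.

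**Figure D2:**
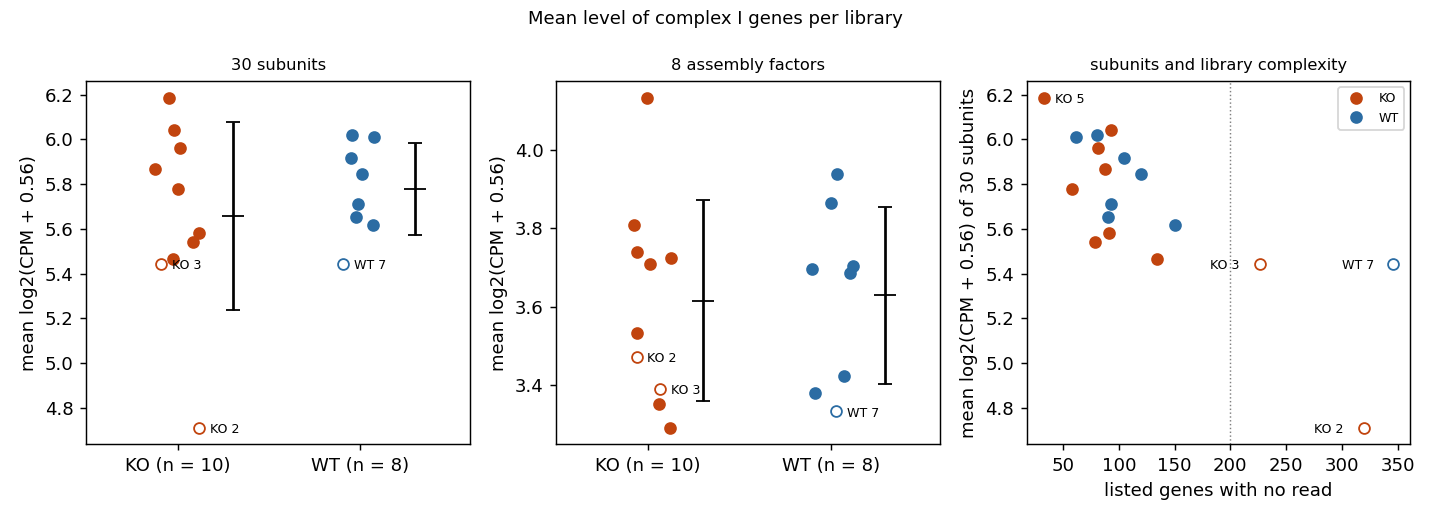
Mean log2(CPM + 0.56) of the 30 subunits (left) and of the 8 assembly factors (middle) in each library, KO left of WT, with the group mean and SD as bars, and the subunit mean against the number of listed genes without a read (right). Open circles are KO 2, KO 3 and WT 7. KO 2, at 4.71, is the lowest library for the subunits and lies within the range of the others for the assembly factors.

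Promoters were searched for NRF1, YY1 and 5 other motifs, since most subunits varied together across libraries. NRF1 and YY1, given first, are the 2 whose share exceeded that of listed genes the most. RefSeq promoters of GRCm38.p6, 250 bases before to 50 after the start, were matched for 34 of the 39 genes. The NRF1 motif GCATGCGC was found on either strand in 5 of the 34 (14.7%), against 6.3% of 8511 listed genes with a promoter. The YY1 motif AAGATGGCG was found in 6 (17.6%), against 3.8%. No gene had both motifs, and 11 (32.4%) had one of them, against 9.8%. All 6 YY1 matches lay on the gene's own strand after the start, beginning 10 to 35 bases downstream of it, and 54.3% of the listed genes with a YY1 match had one on their own strand after the start. Of 5 other motifs searched in the same way, the ETS letters CCGGAAG were in 14.7% against 20.7% of listed genes, the SP letters GGGCGG in 55.9% against 70.8%, the NFY letters CCAAT in 32.4% against 42.7%, the ERR letters AAGGTCA in 5.9% against 3.7% and the TATA letters TATAAA in 8.8% against 8.2%. A match is a string of letters and does not show binding. Shown are 3 promoters with a YY1 match (Ndufs4, chr13:114388045-114388344, minus strand; Ndufaf8, chr11:120098684-120098983, plus strand; Ndufs7, chr10:80249199-80249498, plus strand), 2 with an NRF1 match (Ndufa6, chr15:82354242-82354541, minus strand; Ndufa8, chr2:36049289-36049588, minus strand) and 1 with neither (Ndufv1, chr19:4012706-4013005, minus strand). Each is written on the gene's strand, with the matched motif in capitals.
Ndufs4: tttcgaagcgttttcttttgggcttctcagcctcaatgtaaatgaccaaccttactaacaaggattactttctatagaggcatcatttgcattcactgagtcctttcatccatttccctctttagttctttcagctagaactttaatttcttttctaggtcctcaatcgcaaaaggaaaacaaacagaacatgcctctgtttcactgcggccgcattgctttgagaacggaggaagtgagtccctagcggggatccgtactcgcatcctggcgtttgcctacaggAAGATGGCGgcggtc
Ndufaf8: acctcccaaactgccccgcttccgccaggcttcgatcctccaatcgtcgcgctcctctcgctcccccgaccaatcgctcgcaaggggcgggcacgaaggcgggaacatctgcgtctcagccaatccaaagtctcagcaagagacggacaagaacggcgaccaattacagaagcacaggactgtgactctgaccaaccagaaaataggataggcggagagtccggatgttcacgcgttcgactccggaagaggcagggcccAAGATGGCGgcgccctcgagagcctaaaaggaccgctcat
Ndufs7: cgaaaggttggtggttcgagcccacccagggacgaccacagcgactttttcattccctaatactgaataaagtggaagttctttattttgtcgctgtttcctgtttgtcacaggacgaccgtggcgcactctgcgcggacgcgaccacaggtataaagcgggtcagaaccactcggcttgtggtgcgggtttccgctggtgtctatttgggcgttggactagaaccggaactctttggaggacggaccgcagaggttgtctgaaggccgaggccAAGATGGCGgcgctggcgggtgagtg
Ndufa6: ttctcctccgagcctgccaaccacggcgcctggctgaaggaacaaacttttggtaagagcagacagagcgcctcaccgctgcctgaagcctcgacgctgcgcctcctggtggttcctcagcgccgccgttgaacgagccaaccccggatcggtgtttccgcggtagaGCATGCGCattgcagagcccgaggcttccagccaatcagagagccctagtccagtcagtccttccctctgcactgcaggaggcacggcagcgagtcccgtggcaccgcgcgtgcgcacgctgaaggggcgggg
Ndufa8: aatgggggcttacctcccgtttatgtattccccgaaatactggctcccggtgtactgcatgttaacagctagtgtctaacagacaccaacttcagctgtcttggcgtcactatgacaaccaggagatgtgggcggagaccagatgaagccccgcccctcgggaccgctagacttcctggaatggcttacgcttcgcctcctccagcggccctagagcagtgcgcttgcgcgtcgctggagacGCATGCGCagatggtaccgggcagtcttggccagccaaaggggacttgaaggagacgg
Ndufv1: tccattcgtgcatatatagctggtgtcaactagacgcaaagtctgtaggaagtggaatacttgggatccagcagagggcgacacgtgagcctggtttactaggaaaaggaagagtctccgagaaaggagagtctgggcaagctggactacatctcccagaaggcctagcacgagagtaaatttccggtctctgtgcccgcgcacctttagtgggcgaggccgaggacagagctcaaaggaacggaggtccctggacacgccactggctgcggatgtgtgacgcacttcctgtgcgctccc
They were chosen to set genes that followed the other subunits across libraries (Ndufs4, Ndufaf8 and Ndufa6) beside genes that did not (Ndufs7 and Ndufv1). The median correlation with the mean of the subunits was 0.56 for the 11 genes with NRF1 or YY1 and 0.73 for the 23 with neither, and 0.64 and 0.66 over the 15 libraries left without KO 2, KO 3 and WT 7. In 13 of the 39 genes (33.3%) a protein-coding gene on the other strand started up to 1000 bases upstream and pointed away, against 11.5% of listed genes. Starts that overlapped slightly were also counted. Ndufs1 and Eef1b2, a translation elongation factor, start 3 bases apart, and Ndufa7 and the ribosomal protein gene Rps28 start 10 bases apart.

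No complex I gene passed the test between KO and WT, most were slightly lower in KO, and fewer were lower without 3 libraries. With all 18 libraries, limma called 0 of the 10509 genes (0.00%) at an adjusted p under 0.05, and 0 of the 39. At an unadjusted p under 0.05 it gave 567 genes (5.40%) and 0 of the 39. The log2 difference was negative, lower in KO, for 30 of the 39 (76.9%), against 50.4% of all genes, with a median of -0.14, against -0.0025 for all genes. All 39 ranges overlapped between the groups. That count was not taken over all genes, so it does not set complex I genes apart. For 33 of the 39 the 95% interval of the difference excluded a 2-fold change in either direction, as it did for 8105 of the 10509 genes.

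By role, the 9 peripheral-arm accessory subunits were all lower in KO, with differences of -0.30 to -0.11, and 5 of the 6 core subunits were lower. Of the 14 membrane-arm accessory subunits 9 were lower and 5 higher, with a median of -0.09, and of the 8 assembly factors 6 were lower and 2 higher, with a median of -0.06. None of these passed the test. The mean over the 39 genes was 5.18 ± 0.37 in KO (SD, n = 10) and 5.26 ± 0.22 in WT (SD, n = 8), a difference of -0.09 that is smaller than either SD. For the subunits alone it was 5.66 ± 0.42 in KO and 5.78 ± 0.21 in WT, and for the assembly factors 3.61 ± 0.26 in KO and 3.63 ± 0.23 in WT.

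The difference was smaller without the 3 libraries with many unread genes. Without them (8 KO and 7 WT) the mean over the 39 genes was 5.31 ± 0.25 in KO and 5.32 ± 0.17 in WT, a difference of -0.01, and without KO 2 alone the difference was -0.0040. The count was then 23 lower and 16 higher in KO, 59.0% lower against 50.2% of the 10508 genes tested, and the median difference was -0.03. The peripheral-arm accessory subunits had 7 of 9 lower, and the membrane-arm ones 7 of 14. One complex I gene, Ndufab1, had an unadjusted p under 0.05, against 6.28% of all genes, and 0 had an adjusted p under 0.05.

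The 4 genes of smallest p among those lower in KO were Ndufaf3, Ndufa2, Ndufab1 and Ndufa11. Ndufaf3 had a lowest value of 2.88, a median of 4.26 and a highest value of 5.16 in KO, and 4.05, 4.66 and 5.10 in WT. Its difference was -0.51 (95% interval -1.04 to 0.01, p = 0.056, limma adjusted p = 0.935), and -0.29 without the 3 libraries. Ndufa2, whose levels are given above, differed by -0.26 (limma adjusted p = 0.945), and by -0.15 without them. Ndufab1 codes for the mitochondrial acyl carrier protein, which also serves fatty acid and lipoic acid synthesis. It had 2.45, 4.16 and 4.88 in KO and 3.54, 4.52 and 5.01 in WT. In both groups the lowest library was one of the 3 with many unread genes (KO 2 and WT 7), and the difference was -0.45 (95% interval -0.95 to 0.06). It was -0.27 without KO 2 alone, -0.59 without WT 7 alone and -0.49 without the 3 (p = 0.007, limma adjusted p = 0.566). Ndufa11, an accessory subunit of the membrane arm, had 5.53, 6.83 and 7.48 in KO and 6.67, 7.10 and 7.47 in WT, and differed by -0.33 (limma adjusted p = 0.945). Its difference was -0.20 both without KO 2 alone and without the 3. KO 2 was the lowest library for each of these 4 genes.

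The 4 genes of smallest p among those higher in KO were Ndufaf1, Ndufaf4, Ndufa1 and Ndufs5. Ndufaf1, a factor for the membrane arm, had 1.33, 2.93 and 3.27 in KO and 1.45, 2.52 and 2.71 in WT, a difference of 0.53 (95% interval -0.07 to 1.12, limma adjusted p = 0.945). Ndufaf4 had 4.17, 5.22 and 5.51 in KO and 4.19, 4.68 and 5.54 in WT, a difference of 0.35 (95% interval -0.05 to 0.74, limma adjusted p = 0.945). Without the 3 libraries the differences were 0.38 for Ndufaf1 and 0.30 for Ndufaf4. The KO median of both factors was above the WT median while the ranges overlapped. Ndufa1, an X-linked accessory subunit of the membrane arm, had 1.5, 3.20 and 3.94 in KO and -0.04, 2.79 and 3.70 in WT, where WT 7 held 1 read. Its difference of 0.56 was 0.19 without WT 7 alone and 0.43 without the 3. Ndufs5 differed by 0.54 (95% interval -0.67 to 1.74), an interval too wide to exclude a 2-fold change, and by 0.29 without the 3. Leaving out 1 library moved it to between 0.27 (without WT 2 or WT 8) and 0.84 (without WT 6).

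Leaving out KO 2 turned the sign of the difference of the core subunit Ndufs8. It was -0.38 (95% interval -1.26 to 0.50) with all libraries, 0.05 without KO 2 alone and 0.06 without the 3. Among other core subunits the differences were -0.33 for Ndufs1, -0.08 for Ndufs7, -0.05 for Ndufv1 and 0.08 for Ndufv2, each with an interval inside a 2-fold change. That of Ndufs1 was -0.19 without KO 2 alone and -0.15 without the 3, where Ndufs7 had -0.12, Ndufv1 -0.03 and Ndufv2 0.18. Ndufa4, first described with complex I and now assigned to complex IV (cytochrome c oxidase), had 0.43, 3.55 and 4.24 in KO and -0.04, 3.64 and 4.07 in WT. Its lowest libraries were KO 3 with 2 reads and WT 7 with 1 read, and its difference was 0.23 with all libraries, -0.20 without WT 7, 0.54 without KO 3 and 0.17 without all 3 libraries.

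**Figure D3:**
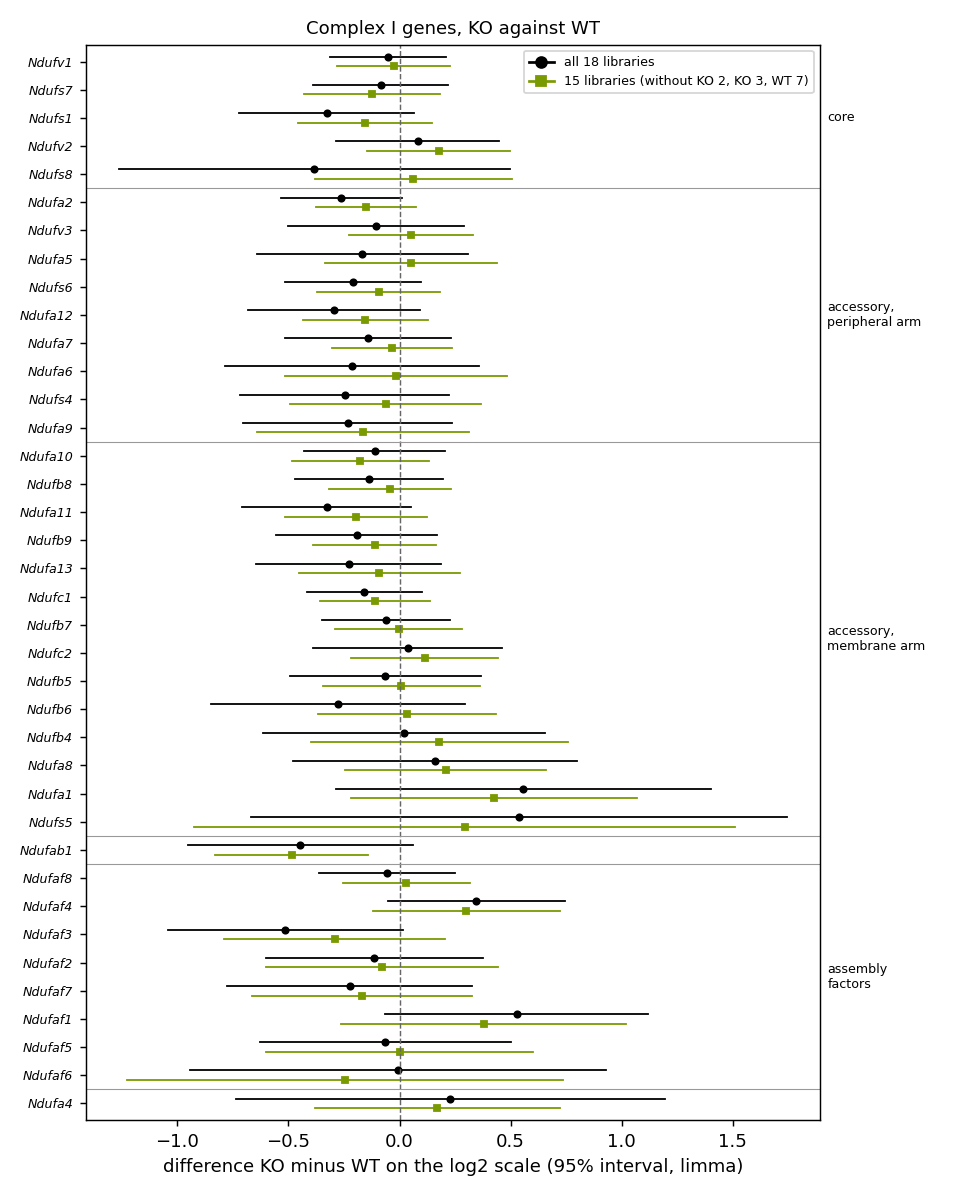
Difference KO minus WT on the log2 scale for 38 of the 39 genes, with the 95% interval from limma, for all 18 libraries (circles) and for the 15 left without KO 2, KO 3 and WT 7 (squares). With 18 libraries 29 of the 38 points lie below 0, with 15 libraries 22 do, and with 15 the interval of Ndufab1 alone excludes 0.

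Titles carry animal numbers, and 12 libraries fall into 3 runs of consecutive numbers that hold both groups. What a run stands for is not in the labels. The difference in the mean of the 39 genes was -0.58 in the run with KO 2 and KO 3 (2 KO, 2 WT), -0.10 in the second (2 KO, 2 WT) and -0.25 in the third (3 KO, 1 WT). Over these 12 libraries it was -0.28, with 5.09 ± 0.42 in KO (SD, n = 7) and 5.38 ± 0.17 in WT (SD, n = 5). With the run as a term, 35 of the 39 were lower in KO, against 51.9% of 10461 genes, and 8 had an unadjusted p under 0.05, against 8.76%; the smallest limma adjusted p was 0.492. The difference was larger over the libraries of the 3 runs than over all libraries, and no gene passed in either fit. KO 2 and KO 3, 2 of the 7 KO libraries in these runs, are both in the run with -0.58. The runs with -0.10 and -0.25 hold no library with many unread genes, and the mean was lower in KO in both. Over the 15 libraries left without KO 2, KO 3 and WT 7 the difference was -0.01. Each run holds few libraries, with 1 WT library in the run with -0.25. The part of the runs in the larger difference was not tested.

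The level of complex I transcripts varied more between libraries of a group than between groups. KO 5 had the highest mean over the 39 genes, 5.70, and the highest value for 10 of them. KO 2 had the lowest mean, 4.41, and the lowest value for 22, of which 20 are subunits and 2 assembly factors. Against the median of the 15 other libraries, the median deviation of KO 2 on the log2 scale was -1.59 over the peripheral-arm accessory subunits, -1.05 over the membrane-arm ones and -0.35 over the assembly factors. The median over all listed genes was -0.03 in that library. Complex I transcripts are short, with a median of 1079 bases against 3236 for listed genes. In KO 2 all genes above a log2 level of 5 with transcripts under 1500 bases had a median deviation of -0.55 and longer ones of -0.00138, and the subunits among the short ones had -1.15. The part of transcript length in the low subunit values of KO 2 was not tested.

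Across the 18 libraries most subunits went up and down together. The median Pearson correlation was 0.50 over the 435 pairs of subunits, 0.26 over the 240 pairs of a subunit and an assembly factor and 0.09 over the 28 pairs of assembly factors, against -0.0005 over all pairs of listed genes. These values are descriptions, since all points share the same libraries with their depth and complexity. Level differs between the classes as well: the 22 members above a log2 level of 5, only 1 of them an assembly factor, had a median of 0.54, against 0.01 for all listed genes above that level. With the group means removed the median over all 741 pairs was 0.38, against 0.39 before. Without KO 2 alone the median over subunit pairs was 0.28, and without all 3 libraries it was 0.37. It was 0.64 within the 10 KO libraries and 0.30 within the 8 WT libraries.

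Genes differed in how closely they followed the rest. Against the mean of the other subunits, r over 18 libraries was above 0.5 for 24 of the 30 subunits and 4 of the 8 assembly factors. The highest were Ndufa12, Ndufs8 and Ndufb9, at 0.92, 0.92 and 0.91, which were 0.75, 0.85 and 0.78 over 15 libraries. Among the assembly factors Ndufaf8 and Ndufaf3 were close to the subunits, at 0.84 and 0.76, and 0.70 and 0.78 over 15 libraries. The pair Ndufa6 and Ndufaf8 had r = 0.92 over 18 libraries and 0.86 over 15. By contrast Ndufv1 and Ndufs7, both core subunits, had 0.06 and -0.13, and Ndufa10, a membrane-arm subunit related to nucleoside kinases, had -0.07, which was -0.44 over 15 libraries. Ndufaf4 had -0.23 and Ndufs5 -0.37. Ndufv1 and Ndufa10 are among the 6 most abundant members, with at least 288 and 231 reads in every library. Ndufab1 had 0.57 over 18 libraries and -0.03 over 15. Ndufa4 had 0.37 with the subunits and 0.59 with the mean of complex IV, and 0.13 and 0.26 over 15 libraries.

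**Figure D4:**
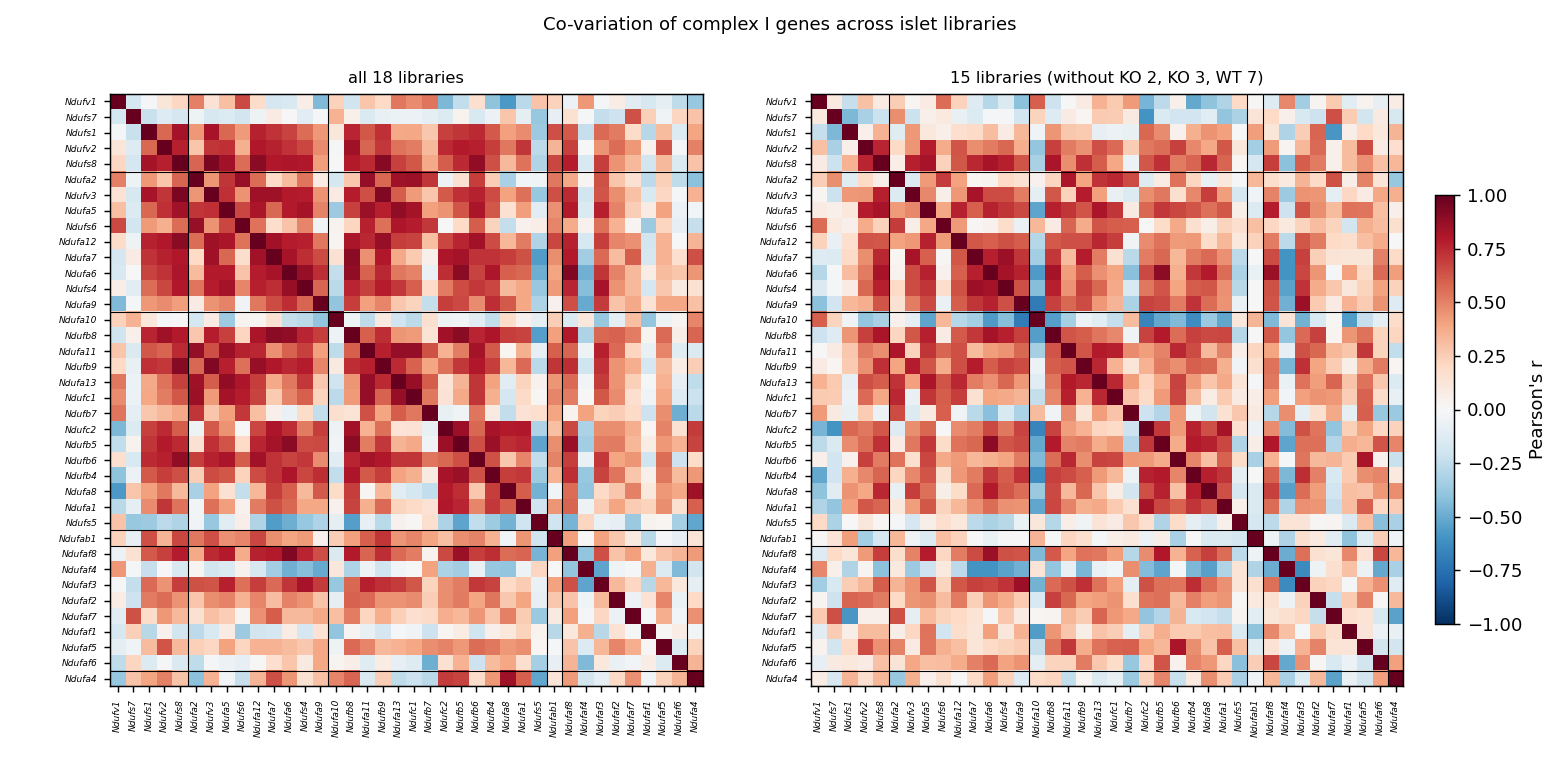
Pearson's r between each pair of 38 of the 39 genes over all 18 libraries (left) and over the 15 left without KO 2, KO 3 and WT 7 (right), with genes ordered by class (lines) and by level within a class. Most subunits form a block of positive values, which Ndufv1, Ndufs7, Ndufa10 and Ndufs5 do not join, and the block is paler over 15 libraries (median over pairs of all 30 subunits 0.37, against 0.50).

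The subunit mean moved with measures of the library. It was lower in libraries with more unread genes, with r = -0.78 and rho = -0.66 over 18 libraries, -0.65 without the 2 farthest libraries and -0.58 over the 15. It was higher in libraries with more reads (r = 0.62, rho = 0.62, 0.67 without the 2 farthest, 0.48 over the 15). It was lower where the stromal list (Col1a1, Col1a2, Col3a1, Sparc, Dcn and Pdgfrb) was higher, with r = -0.68 over 18 libraries and -0.62 over 15. The stromal mean ranged from 2.48 to 3.99 in KO and from 2.46 to 3.73 in WT. The ductal list had r = 0.64 over 18 libraries and 0.48 over 15, and its mean ranged from 4.01 to 5.19 in KO and from 4.20 to 5.06 in WT. The acinar list had r = 0.50 over 18 libraries and 0.71 over 15, and its mean ranged from 2.07 to 7.49 in KO and from 2.32 to 7.30 in WT. Of the 9 lists, these had the largest r over 18 libraries in either direction. The rest lay between -0.34 (endothelial) and 0.30 (alpha). The beta list had -0.08 over 18 libraries and 0.42 over 15. The part of these measures in the complex I values was not tested beyond a fit with the number of unread genes as a covariate. In that fit 32 of the 39 genes were lower in KO, against 50.6% of all genes, with a median of -0.17. Without the covariate 30 were lower, with a median of -0.14. Of the 39 genes 6, all lower in KO, had an unadjusted p under 0.05, against 7.06% of all genes (3.35% with a lower level in KO), and 0 had an adjusted p under 0.05.

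The other respiratory complexes moved with complex I. The subunit mean had r = 0.93 with complex III, 0.93 with complex IV and 0.94 with complex V (ATP synthase), and 0.92, 0.96 and 0.86 over the 15 libraries. With complex II, which takes electrons from succinate, r was 0.70, and 0.27 over the 15. It was 0.70 with the mean of the assembly factors, and 0.85 over the 15. The 8 genes outside the set most correlated with the subunit mean, among 5413 genes of mean log2 at least 4, were Atp5mpl (0.95), Cox6a1 (0.95), Maob (0.94), Eef1b2 (0.94), Rnh1 (0.94), Atpif1 (0.93), Tram1 (0.93) and Rab1a (0.93). Atp5mpl and Atpif1 belong to ATP synthase and its inhibitor, Cox6a1 to complex IV, and Maob is an outer-membrane monoamine oxidase. Over 15 libraries 3 of these 8 (Cox6a1, Rnh1 and Atpif1) were again among the first 8, where Cox4i1 of complex IV led with 0.91.

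No gene of the other respiratory complexes passed the test either, and the direction of most of their counts depended on the libraries and the fit used. With all 18 libraries, 4 of the 8 genes of complex II were higher and 4 lower in KO, and without the 3 libraries the counts were again 4 and 4. Of the 14 genes of complex III 5 were higher and 9 lower with 18 libraries, and 8 higher and 6 lower with 15. Of the 13 of complex IV 5 were higher and 8 lower with 18 libraries, and 7 higher and 6 lower with 15. Of the 15 of complex V 6 were higher and 9 lower with 18 libraries, and 12 higher and 3 lower with 15. With the run as a term, 6 of 8 complex II genes and 12 of 14 complex III genes were lower in KO. So were 10 of 13 in complex IV and 12 of 15 in complex V, against 51.9% of 10461 genes. A limma unadjusted p under 0.05 held for 3, 2, 7 and 2 genes of complexes II to V, against 8.76% of all genes. All of these were lower in KO except 1 of complex IV. Within complex II the smallest p were those of the assembly factors Sdhaf2 (difference 0.56, limma adjusted p = 0.925) and Sdhaf1 (-0.50, limma adjusted p = 0.945). Without the 3 libraries Sdhaf2 had 0.84 (limma adjusted p = 0.395) and Sdhaf1 -0.17. In complex III they were those of the Rieske protein gene Uqcrfs1 (0.50, and 0.54 over 15 libraries) and the assembly factor Uqcc2 (-0.31, and -0.20). In complex IV they were those of Cox4i1 (-0.27, and -0.12) and Cox6c (-0.24, and -0.10), and in complex V those of Atp5k (-0.28, and -0.07) and Atp5j (0.60, and 0.83). Of the 11 complex I assembly factors without the Nduf prefix, 6 were higher and 5 lower with 18 libraries, and 7 higher and 4 lower with 15. Nubpl, which inserts iron-sulfur clusters, had 0.84, and 0.78 over 15, and Tmem126a 0.30, and 0.22. None of these differences passed over all genes.

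Nor did any gene that supplies NADH, makes ubiquinone or regulates respiratory genes. Of the 15 citric acid cycle genes 9 were higher and 6 lower in KO with 18 libraries, and 10 higher and 5 lower with 15. With the run as a term 6 were higher and 9 lower. A limma unadjusted p under 0.05 was found for 1 with 18 libraries and 3 with 15, all higher in KO. With the run as a term it was found for 1, lower in KO. Idh3b (isocitrate dehydrogenase) had 0.50, 0.46 over 15 libraries and 0.29 without WT 7 alone. Of the 11 genes of NADH shuttles and mitochondrial NAD 3 were higher and 8 lower with 18 libraries, and 7 higher and 4 lower with 15. The transhydrogenase Nnt had -0.24, and -0.32 over 15, and the aspartate-glutamate carrier Slc25a13 -0.31, and -0.28. Of the 12 genes of ubiquinone synthesis 3 were higher and 9 lower with 18 libraries, and 1 higher and 11 lower with 15, with Coq4 at -0.30 and -0.32 and Pdss2 at -0.29 and -0.25. Among 13 regulators of respiratory genes 5 were higher and 8 lower with 18 libraries, and 6 higher and 7 lower with 15. Ppargc1a, a coactivator of mitochondrial genes, had a lowest value of -0.83, a median of 1.56 and a highest value of 3.77 in KO, and 0.84, 2.80 and 3.79 in WT, a difference of -1.03 (95% interval -2.15 to 0.09, limma adjusted p = 0.945) that was -1.37 over 15 libraries. Esrra, the nuclear receptor it works with, differed by 0.65 (limma adjusted p = 0.945), by 0.35 without WT 7 and by 0.30 over 15 libraries. Of 11 hypoxia-response genes 8 were higher and 3 lower with 18 libraries, and 10 higher and 1 lower with 15. A limma unadjusted p under 0.05 was found for 2 and 4 of them, all higher in KO, against 5.40% and 6.28% of all genes. With the run as a term 7 were higher and 4 lower, and 1, lower in KO, had such a p, against 8.76% of all genes. Slc2a1, a glucose transporter, had 1.68, 4.23 and 5.04 in KO and 2.45, 3.15 and 4.49 in WT, a difference of 0.91 (p = 0.012, limma adjusted p = 0.878). Without the 3 libraries it was 1.23 (p = 5.477e-05, limma adjusted p = 0.0997), and with the run as a term 0.24.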

How the data were processed

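The deposited table holds log2 values of 10509 genes in 18 columns, 1 per library, from 3' end sequencing of islet RNA (QuantSeq FWD, 20 PCR cycles, per the labels). GRCm38, edgeR, HTSeq 0.6.1 and STAR 2.5.2 are listed, with no roles, in the submitters' processing notes. Which annotation, gene filter and prior count they used is not stated there. The lowest value is -0.83 in every column. With this floor (0.562 CPM) subtracted, 100% of the values were whole multiples of 1 read within 0.05 reads, 1 read being worth 0.238 to 0.411 CPM, so reads were recovered. PCR copies are not independent molecules, so reads understate the error, and fold changes on this scale understate those of genes with few reads. Samples were grouped by the genotype label and numbered in accession order. Each title carries an animal number, but nothing says how the animals were bred or handled, so p-values measure the spread between these samples.

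All genes were fitted with limma 3.58.1 in R 4.3.3 (mean-variance trend, no covariate, two-sided, Benjamini-Hochberg over all genes, adjusted p under 0.05). Genes had to exceed a log2 of 0 in 8 samples or more, and 0 of them failed. The fit was also run on simulated data in which each gene varied on its own. That run cannot check the fit for variation that genes of a library share. Low-complexity libraries are those with 200 or more genes at the lowest value. Complex I genes are those whose symbol begins with Nduf. The classes follow known roles. Values are given for core subunits, the 4 of smallest p among those higher and among those lower in KO, the 2 highest and 2 lowest by level, Ndufab1, Ndufa4, up to 2 genes of smallest p per other list and the 8 genes most correlated with the subunit mean. Of the genes these rules name, 2 are not reported here, though they stay in every fit, count and mean. The members, lists, runs of animal numbers and rules were chosen with earlier results of these data known. Co-variation is the median pairwise Pearson correlation across libraries. Promoters are from RefSeq (GRCm38.p6), and transcript lengths and neighbouring starts from GENCODE.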

Additional observations from a re-analysis of the deposited data

Results flagged for a closer look

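In 18 of the 78 groups of values examined for single genes (39 genes, KO and WT), 1 library lay far from the others by Dixon's criterion, which chance alone meets in about 1 of 20 groups. KO 2 was that library 7 times for single genes, always at the low end. Its log2 levels were 7.34 for Ndufa2, 5.78 for Ndufv3, 5.60 for Ndufa5, 4.91 for Ndufa12, 0.40 for Ndufs8, 2.24 for Ndufb6 and 2.45 for Ndufab1. It was also the low library for the mean of the subunits, at 4.71 with the other KO libraries at 5.44 to 6.19, and for the gap between subunits and assembly factors, at 1.24 with the others at 1.97 to 2.32. KO 3 was low for Ndufa8, at 2.28, and Ndufa4, at 0.43. Among the KO libraries not low in complexity, KO 9 was low for Ndufaf4, at 4.17, and KO 7 for Ndufaf1, at 1.33.

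In WT, WT 7 was the low library for Ndufa10 at 6.58, Ndufb9 at 6.36, Ndufc2 at 5.49, Ndufab1 at 3.54, Ndufa8 at 2.75 and Ndufa4 at -0.040. WT 1 was low for Ndufa5, at 6.38. KO 2, KO 3 and WT 7 are the libraries with 320, 227 and 346 listed genes without a read. The part of library complexity in these low values was not tested.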

How the results depend on the processing

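Across the alternatives that were run (median centring, quantile normalization, 1 added on the linear scale, a stricter filter, no trend, robust empirical Bayes, sample weights, limma voom on recovered reads, adjusted p under 0.10, leaving out the 3 low-complexity libraries or each library, the libraries of runs, and the run or the number of unread genes as a term), 0 complex I genes and 0 of all genes were called. The threshold of 0.10 was applied to the 18 libraries alone, and without the low-complexity libraries the smallest adjusted p over all genes was 0.0795. At an unadjusted p under 0.05 the number of complex I genes was 0 to 8. Leaving out 1 library at a time gave counts of 0 to 0, a difference in the mean of the 39 genes of -0.15 to -0.0040 (the last without KO 2), one of -0.07 to 0.03 among the 15 libraries, a value of subunits minus assembly factors of 2.08 to 2.14, against 2.09 over all 18, and a median correlation of 0.28 to 0.41, against 0.39. Subunits minus assembly factors was 2.63 with medians over members and 0.49 among members above a log2 level of 5, where 1 assembly factor is left, and the median correlation of those members was 0.54. Of the 37 genes followed singly, 8 changed sign under some setting. Over the libraries of runs, without and with the run as a term, Ndufv1 had 0.085 and 0.039, Ndufv2 -0.075 and -0.13, Ndufa1 -0.43 and -0.43, Ndufa4 -0.36 and -0.45 and Tmem126a -0.11 and -0.14. Without the low-complexity libraries Ndufs8 had 0.063 and Ndufv3 0.051. Ndufv3 had 0.046 with sample weights, and Ndufaf6 0.053 with limma voom. Leaving out 1 library gave -0.52 to 0.045 for Ndufs8 and -0.17 to 0.052 for Ndufv3 (both highest without KO 2), -0.37 to 0.13 for Ndufaf6 and -0.20 to 0.54 for Ndufa4. The cause of these sign changes was not tested. The scores with each gene in SD units (-0.24) and without 7 genes whose transcript ends share words with another gene (-0.08), the alternatives of the 15-library score and of the pathway genes, and the marker lists without the 3 libraries were added after seeing the data. No paired analysis was possible because the labels give no replicate numbers shared between groups, and each animal number occurs once. The run of animal numbers entered as a term instead. At 2831137 to 4303680 reads, counts were low for genes such as Ndufs5 and Ndufaf6, with medians of 9 and 11 reads over the 18 libraries and 95% intervals of -0.67 to 1.74 and -0.95 to 0.93.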
